A study of Mus musculus with 12 samples.

Results

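The conventional dendritic cell identity genes described here are the 9 genes Zbtb46, Batf3, Id2, Flt3, Xcr1, Clec9a, Sirpa, Dpp4 and Kmo, out of 19937 genes measured with a probe set that carries exactly 1 gene symbol. Each member had 1 such probe set, so the rule, under which competing probe sets are selected on their highest mean log2 value over the 12 arrays, decided nothing. No difference between groups entered the rule, but the genes were proposed with earlier results of these arrays known. Mouse bone marrow was cultured with 200 ng/ml GM-CSF over 7 days, CD11c-bearing dendritic cells were taken from it with beads, and their RNA was measured on 12 arrays in 4 groups of 3. The groups were IL-2 knockout cells given curdlan, IL-2 knockout cells left untreated, wild-type cells given curdlan and wild-type cells left untreated. Curdlan is a beta-glucan that engages the receptor Dectin-1, and the exposure lasted 6 h. The series concerns IL-2 made by dendritic cells. The strain label of all 12 arrays, wild type included, is B6.129P2-Il2tm1Hor/J, so genotype was read from the titles and the genotype label. The sources used here give neither the age and number of the donor mice, nor the curdlan dose, nor whether replicates came from separate animals. The p-values therefore reflect only how far these samples spread, which may be technical.

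Conventional dendritic cells arise from bone marrow precursors that carry the receptor FLT3 and switch on the transcription factor ZBTB46. They split into cDC1 cells, which depend on BATF3 and ID2 and display XCR1 and CLEC9A, and cDC2 cells, which display SIRPA. DPP4 and KMO are found on or in conventional dendritic cells more than in macrophages. Cultures grown in GM-CSF are known to hold both dendritic-like and macrophage-like cells within the CD11c-positive fraction.

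Among the 9 genes, Dpp4 was lower in knockout cells with and without curdlan, Kmo fell and Zbtb46 rose with curdlan in both genotypes, and Flt3 rose with curdlan in knockout cells. Batf3, Id2, Xcr1, Clec9a and Sirpa passed the threshold in none of the 6 comparisons. The threshold was an adjusted p of 0.05 in limma's moderated test, fitted to all genes. The promoters of the 4 genes that passed in any comparison are printed first, because their values carry the results. Each window runs from 250 bases before to 50 bases after a transcription start listed by RefSeq on build GRCm38.p6, and is written 5′ to 3′ on the strand of the gene. Capitals mark matches to any of 6 motifs searched on both strands.
Dpp4, chr2:62412182-62412481, minus strand: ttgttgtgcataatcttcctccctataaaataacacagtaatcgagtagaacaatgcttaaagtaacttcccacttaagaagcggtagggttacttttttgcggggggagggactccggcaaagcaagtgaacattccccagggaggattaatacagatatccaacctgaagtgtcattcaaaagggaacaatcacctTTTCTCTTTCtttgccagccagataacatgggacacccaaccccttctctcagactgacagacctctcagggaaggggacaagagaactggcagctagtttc
Kmo, chr1:175631943-175632242, plus strand: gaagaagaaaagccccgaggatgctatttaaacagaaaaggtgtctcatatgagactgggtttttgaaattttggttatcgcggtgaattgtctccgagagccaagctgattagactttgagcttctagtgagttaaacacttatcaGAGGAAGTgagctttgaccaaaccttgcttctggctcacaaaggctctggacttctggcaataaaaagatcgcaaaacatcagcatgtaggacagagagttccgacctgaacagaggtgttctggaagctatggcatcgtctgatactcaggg
Zbtb46, chr2:181424339-181424638, minus strand: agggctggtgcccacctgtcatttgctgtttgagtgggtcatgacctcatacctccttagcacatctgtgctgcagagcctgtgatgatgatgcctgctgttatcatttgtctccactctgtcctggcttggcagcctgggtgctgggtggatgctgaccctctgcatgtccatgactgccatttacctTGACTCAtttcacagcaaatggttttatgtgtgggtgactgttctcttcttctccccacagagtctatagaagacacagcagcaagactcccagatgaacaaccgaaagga
Flt3, chr5:147400440-147400739, minus strand: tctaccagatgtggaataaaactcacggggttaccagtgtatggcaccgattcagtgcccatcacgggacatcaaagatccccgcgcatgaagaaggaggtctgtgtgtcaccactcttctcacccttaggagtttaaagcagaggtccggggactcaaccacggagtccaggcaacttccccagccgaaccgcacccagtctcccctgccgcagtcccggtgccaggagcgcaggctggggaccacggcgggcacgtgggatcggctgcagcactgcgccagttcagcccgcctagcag
The window listed for Zbtb46 lies inside the gene, downstream of the gene's outermost annotated end. The motifs were TGANTCA for AP-1 and BATF factors, TTCNNNGAA for STAT factors, GAAA followed by any 2 bases and GAAA for IRF factors, GGG followed by any 2 bases and TTTCC for NF-kB, GAGGAAGT for PU.1 and the E-box CAGCTG. The Dpp4 window held the IRF motif, starting at position -52 from the start, and 3.44% of 32851 promoter windows held it. The outermost annotated end of Dpp4, at 62412315, falls within this window, and the motif lies inside the annotated gene. The Kmo window held the PU.1 motif at -103, present in 3.2% of windows. The Zbtb46 window held the AP-1 motif at -61, present in 7.81% of windows. The Flt3 window held none of the 6. Of the other members in the table, Batf3 held the STAT motif (8.3% of windows) at -239 and Id2 the E-box (16.3% of windows) at -196, while the windows of Xcr1 and Clec9a held none. A match describes the letters of the window and is not evidence of binding. Promoters were listed for 8 of the 9 members; Sirpa is named only.

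The deposited values are log2 expression from RMA, a method that corrects background, brings arrays to one distribution and condenses each transcript's probes into 1 value. Array medians over all probe sets lay between 6.59 and 6.64, and the arrays correlated at 0.981 to 0.997. The disrupted gene Il2 averaged 5.77 ± 0.12 in curdlan-treated knockout cells against 7.25 ± 0.53 in curdlan-treated wild-type cells, and 5.90 ± 0.14 in untreated knockout cells against 5.49 ± 0.11 in untreated wild-type cells (SD, n = 3 each). The genes behind the purification and gate, Itgax (CD11c) and the MHC class II genes H2-Aa, H2-Ab1, H2-Eb1 and Cd74, had mean levels at or above the 99.5th percentile of genes. Markers of other cells were also read: 20 of 21 monocyte and macrophage markers exceeded the array median on at least 1 array, while 13 of 17 granulocyte, 8 of 10 mast cell and basophil, 12 of 14 T and NK cell, 8 of 11 B cell and 5 of 12 plasmacytoid cell markers were below it on all 12 arrays. The mean level of the macrophage markers ranged from 10.45 to 10.56 in curdlan-treated knockout cells, 10.56 to 10.71 in untreated knockout cells, 10.40 to 10.53 in curdlan-treated wild-type cells and 10.495 to 10.69 in untreated wild-type cells, with 0 of 21 past the threshold by genotype in either treatment or in the average. Of all genes, 0.622% passed by genotype with curdlan, 1.42% untreated and 5.04% in the average. With curdlan 5 of 21 markers passed in each genotype, near the 22.5% of all genes in knockout cells and 19.6% in wild-type cells. They were 2 higher and 3 lower in knockout cells and 3 higher and 2 lower in wild-type cells. Among them were Ccr2 (-0.84 and -0.56) and Fcgr1 (0.64 and 0.77). Of the 12 plasmacytoid markers 1, Spib, was lower in untreated knockout cells (-1.52, adjusted p 0.0159), where 1.19% of all genes were lower. In the average 3 were lower and 0 higher, where 3.56% of all genes were lower and 1.48% higher. The part of these markers in the members' results was not tested. In bulk samples, fewer cells of a type and less RNA per cell cannot be told apart.

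**Figure D1:**
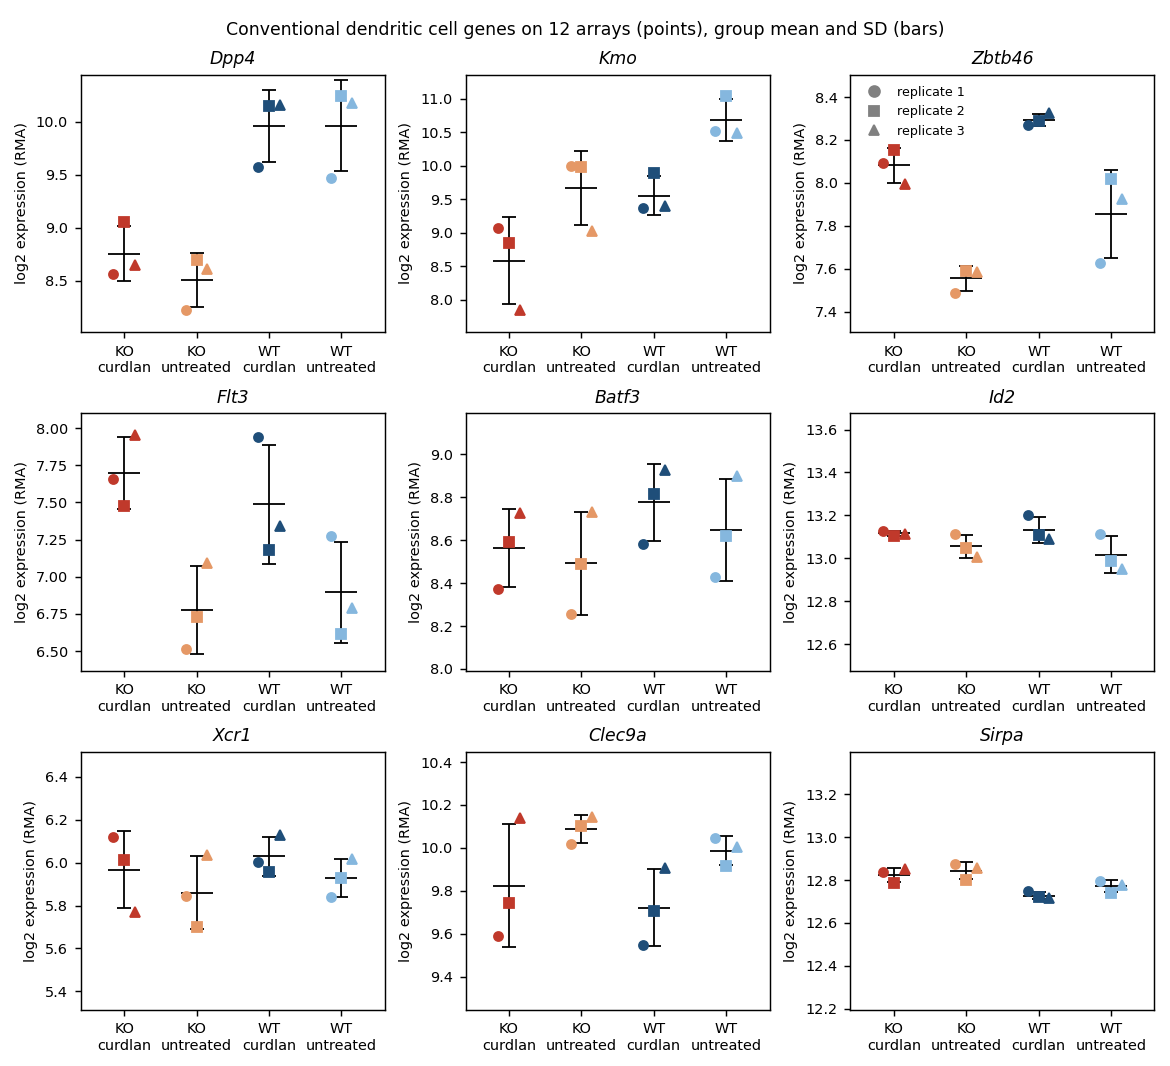
Log2 expression of the 9 genes on each of the 12 arrays (points; the shape gives the replicate number) in the 4 groups, with group means and SD (bars, n = 3). KO is IL-2 knockout and WT is wild type. Each panel has its own log2 axis, so heights compare groups within a gene and not genes with each other. Dpp4 is at 9.06 or below on the 6 knockout arrays and at 9.47 or above on the 6 wild-type arrays.

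Zbtb46 encodes a zinc finger factor that marks cells committed to the conventional dendritic lineage. Its values were 8.09, 8.15 and 7.996 in curdlan-treated knockout cells against 7.49, 7.59 and 7.59 in untreated knockout cells. In wild-type cells they were 8.27, 8.29 and 8.32 with curdlan against 7.63, 8.02 and 7.92 untreated. In both genotypes every curdlan-treated array lay above every untreated array. Zbtb46 rose 1.44-fold with curdlan in knockout cells (log2 change 0.53 ± 0.09, SE, adjusted p 0.00229) and 1.35-fold in wild-type cells (0.44 ± 0.09, adjusted p 0.00539). Both rises kept their call in all 27 alternatives, with adjusted p up to 0.0427 and 0.0363.

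Zbtb46 was also lower in knockout cells at the same treatment, and the arrays did not overlap in either. The difference did not pass with curdlan (-0.21, adjusted p 0.372) or without (-0.30, adjusted p 0.154). Averaged over both treatments it did (-0.26 ± 0.06, SE, adjusted p 0.0371). That averaged call was lost without any single array other than curdlan-treated knockout array 2 or untreated wild-type array 1 (adjusted p 0.0509 to 0.0986), and without any culture other than wild-type culture 1 (0.0783 to 0.198). The average counts curdlan-treated and untreated arrays of a culture as separate samples, and with the culture as a random block the Zbtb46 call was lost (adjusted p 0.08), as it was after quantile normalisation (0.0639), with median-centred arrays (0.0613) and with all probe sets tested (0.0777). In untreated cells the difference passed without untreated wild-type array 1 (-0.42, adjusted p 0.0132) or without that culture (adjusted p 0.0128). The order of the group means was curdlan-treated wild type, curdlan-treated knockout, untreated wild type and untreated knockout, with overlapping arrays only between the middle groups.

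Batf3 encodes a factor of the AP-1 family that cDC1 cells need. Its values were 8.37, 8.59 and 8.73 in curdlan-treated knockout cells, 8.25, 8.49 and 8.73 in untreated knockout cells, 8.58, 8.82 and 8.93 in curdlan-treated wild-type cells, and 8.43, 8.62 and 8.90 in untreated wild-type cells. All neighbouring groups overlapped. The array numbered 1 was the lowest and the array numbered 3 the highest in all 4 groups. The knockout minus wild-type difference, averaged over both treatments, was -0.18 (95% interval -0.41 to 0.05, adjusted p 0.446).

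Id2 encodes an inhibitor of E-protein transcription factors. It lay between 12.95 and 13.20 on all arrays. Its curdlan changes were 0.06 in knockout cells (95% interval -0.07 to 0.19, adjusted p 0.458) and 0.12 in wild-type cells (-0.01 to 0.24, adjusted p 0.196). Here the array numbered 1 was the highest in all 4 groups.

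Flt3 encodes the receptor for the FLT3 ligand, which drives dendritic cell development. It gave 7.66, 7.48 and 7.95 in curdlan-treated knockout cells against 6.51, 6.73 and 7.09 in untreated knockout cells. Wild-type cells gave 7.94, 7.18 and 7.34 with curdlan against 7.28, 6.61 and 6.79 untreated. Flt3 was below the median gene on 4 of the 12 arrays. The groups did not overlap in knockout cells and overlapped in wild-type cells. Flt3 rose 1.89-fold with curdlan in knockout cells (0.92 ± 0.22, SE, adjusted p 0.0148). The change in wild-type cells was 0.59 ± 0.22 and did not pass (adjusted p 0.0906).

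Same-numbered arrays of 1 genotype deviated together, so the culture was also fitted as a block. With that block the wild-type change of Flt3 passed too (adjusted p 0.000754), and it also did with a random block (0.0258). The differences between same-numbered arrays were 1.14, 0.75 and 0.86 in knockout cells and 0.66, 0.57 and 0.55 in wild-type cells. The interaction, the knockout change minus the wild-type change, was 0.32 (95% interval -0.37 to 1.02, adjusted p 0.9998), so a difference in response between the genotypes was not shown. The knockout call was lost without untreated knockout array 1 (adjusted p 0.0657) and without knockout cultures 1 (0.134) or 2 (0.0509), while the wild-type change passed without untreated wild-type array 1 (0.78, adjusted p 0.0453) and was 0.37 without curdlan-treated wild-type array 1 (adjusted p 0.331). By genotype Flt3 did not pass with curdlan (0.21, adjusted p 0.801) or untreated (-0.12, adjusted p 0.958).

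Xcr1, Clec9a and Sirpa encode surface receptors that divide the subsets. Xcr1, the receptor for the chemokine XCL1, lay between 5.70 and 6.13 on the 12 arrays. It was below the median gene on all 12, so its flat values need not be those of a clearly expressed gene. Its curdlan changes were 0.11 in knockout cells and 0.10 in wild-type cells (adjusted p 0.459 and 0.531), and its neighbouring groups all overlapped.

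Clec9a, a lectin that binds actin filaments exposed by dead cells, gave 9.59, 9.74 and 10.14 in curdlan-treated knockout cells against 10.02, 10.10 and 10.14 in untreated knockout cells. Wild-type cells gave 9.55, 9.71 and 9.91 with curdlan against 10.04, 9.91 and 10.00 untreated, and there the arrays did not overlap. The changes were -0.26 (adjusted p 0.145) and -0.27 (adjusted p 0.173), and neither passed. Same-numbered differences in knockout cells were -0.43, -0.36 and -0.0015, and without curdlan-treated knockout array 3 the change was -0.42 and passed (adjusted p 0.0117), as it did without knockout culture 3 (-0.39, adjusted p 0.038). Without curdlan-treated knockout array 1 it was -0.15 (adjusted p 0.437), and the wild-type change was -0.15 without wild-type culture 1 (adjusted p 0.668).

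Sirpa, whose product binds CD47 on other cells, spanned 12.72 to 12.88 over the 12 arrays. In each treatment all knockout arrays lay above all arrays of wild-type cells. In untreated cells this rests on a very narrow gap, with knockout array 2 at 12.7981 and wild-type array 1 at 12.797. The differences were small, 0.10 with curdlan (95% interval 0.00 to 0.20, adjusted p 0.462) and 0.07 untreated (-0.03 to 0.17, adjusted p 0.7).

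Dpp4 encodes CD26, a surface peptidase that removes dipeptides from the ends of peptides such as chemokines. With curdlan its values were 8.57, 9.06 and 8.64 in knockout cells against 9.57, 10.15 and 10.16 in wild-type cells. Untreated cells gave 8.22, 8.70 and 8.61 in knockout cells against 9.47, 10.24 and 10.18 in wild-type cells. All 6 knockout arrays lay below all 6 wild-type arrays. Dpp4 was 2.3-fold lower in knockout cells with curdlan (-1.20 ± 0.23, SE, adjusted p 0.0423) and 2.74-fold lower untreated (-1.45 ± 0.23, adjusted p 0.0134). Averaged over both treatments the difference was -1.33 ± 0.16 (adjusted p 0.00132), which kept its call in all 26 alternatives (adjusted p up to 0.0121). This average counts the curdlan-treated and untreated arrays of a culture as separate samples. Only the random block treats the culture itself as a block, with a correlation of 0.26 shared by all genes (adjusted p 0.00215). None of the alternatives reduced a culture to its mean, so they do not settle that double count.

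The calls within 1 treatment depended on single arrays. With curdlan, the call was lost without knockout curdlan arrays 1 (adjusted p 0.151), 2 (0.0852) or 3 (0.101), wild-type curdlan arrays 2 (0.219) or 3 (0.141), untreated knockout arrays 2 (0.057) or 3 (0.0551) or untreated wild-type array 3 (0.0573), without any culture other than wild-type culture 1 (0.115 to 0.216), and when only the arrays compared were fitted (0.0845). It was also lost after quantile normalisation (0.0532), with all probe sets tested (0.103) and with the trend and robust variance model (0.0569). In untreated cells the Dpp4 call was lost without untreated knockout array 1 (0.051) or untreated wild-type array 2 (0.0748), without knockout cultures 1 (0.0821) or 2 (0.0528) or wild-type cultures 2 (0.0656) or 3 (0.0752), and when only the arrays compared were fitted (0.0584). Dpp4 did not pass with curdlan in knockout cells (0.25, adjusted p 0.436) or wild-type cells (-0.0024, adjusted p 0.996). With the culture as a fixed block the knockout change passed (adjusted p 0.0387) and with a random block it did not (0.29), with same-numbered differences of 0.35, 0.36 and 0.03. The order of the means was untreated wild type, curdlan-treated wild type, curdlan-treated knockout and untreated knockout, and arrays were separate only across the genotypes.

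Kmo encodes kynurenine 3-monooxygenase, an enzyme of tryptophan breakdown. Its values were 9.07, 8.85 and 7.84 in curdlan-treated knockout cells against 9.99, 9.98 and 9.03 in untreated knockout cells. Wild-type cells gave 9.38, 9.89 and 9.40 with curdlan against 10.51, 11.04 and 10.497 untreated. The knockout arrays numbered 3 were the lowest of their groups, and the knockout groups overlapped only in that curdlan-treated array 1 (9.07) lay above untreated array 3 (9.03). Kmo fell 2.12-fold with curdlan in knockout cells (-1.08 ± 0.33, SE, adjusted p 0.0354) and 2.19-fold in wild-type cells (-1.13 ± 0.33, adjusted p 0.0317). The interaction was 0.05 (95% interval -0.97 to 1.06).

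The fall was alike between same-numbered arrays, at -0.92, -1.14 and -1.19 in knockout cells and -1.14, -1.16 and -1.09 in wild-type cells. With the culture as a block the adjusted p was 2.26e-05 in knockout cells and 1.14e-05 in wild-type cells. Without it, the knockout call for Kmo was lost without curdlan-treated knockout arrays 2 (0.0646) or 3 (0.0867; -0.71, against -1.08 with all arrays), untreated knockout arrays 1 (0.13) or 2 (0.0849), knockout cultures 1 (0.107) or 2 (0.114) or wild-type culture 3 (0.0605), with only the arrays compared (0.0853), after quantile normalisation (0.0557), with all probe sets tested (0.0624) and with the trend and robust variance model (0.0621). The wild-type call for Kmo was lost when curdlan-treated wild-type array 1 (0.104) or 3 (0.0832) was left out, when untreated wild-type array 1 (0.0593), 2 (0.114) or 3 (0.0548) was, and with any wild-type culture left out (0.15 for culture 1, 0.113 for 2 and 0.119 for 3), with all probe sets tested (0.0625) and with the trend and robust variance model (0.0604).

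Kmo was also lower in knockout cells. The differences were -0.97 ± 0.33 with curdlan (SE, adjusted p 0.253) and -1.02 ± 0.33 untreated (adjusted p 0.211), with no overlap of the arrays in either treatment, and neither passed. The average over both treatments was -0.99 ± 0.23, or 1.99-fold lower, and passed (adjusted p 0.0305). It counts the curdlan-treated and untreated arrays of a culture as separate samples. With the culture as a random block this call held (adjusted p 0.0378). That block uses a correlation of 0.26 shared by all genes, and culture means were not fitted on their own. With the replicate number as a fixed block the untreated difference of Kmo passed as well (adjusted p 0.0271), and with the culture as a random block it did not (0.133). The averaged call was lost without untreated knockout array 3 (0.0523), curdlan-treated wild-type arrays 2 (0.0897) or 3 (0.0547) or untreated wild-type arrays 2 (0.0906) or 3 (0.0546), and without knockout culture 2 (0.0561) or wild-type cultures 2 (0.22) or 3 (0.0903), with all probe sets tested (0.0705) and with the trend and robust variance model (0.0624). Without knockout culture 3 the averaged difference of Kmo was -0.65 and passed (adjusted p 0.0258), and without curdlan-treated knockout array 3 the difference with curdlan was -0.60 (adjusted p 0.389). Untreated knockout and curdlan-treated wild-type cells were neighbours in the order, with overlapping arrays (means 9.67 and 9.56).

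**Figure D2:**
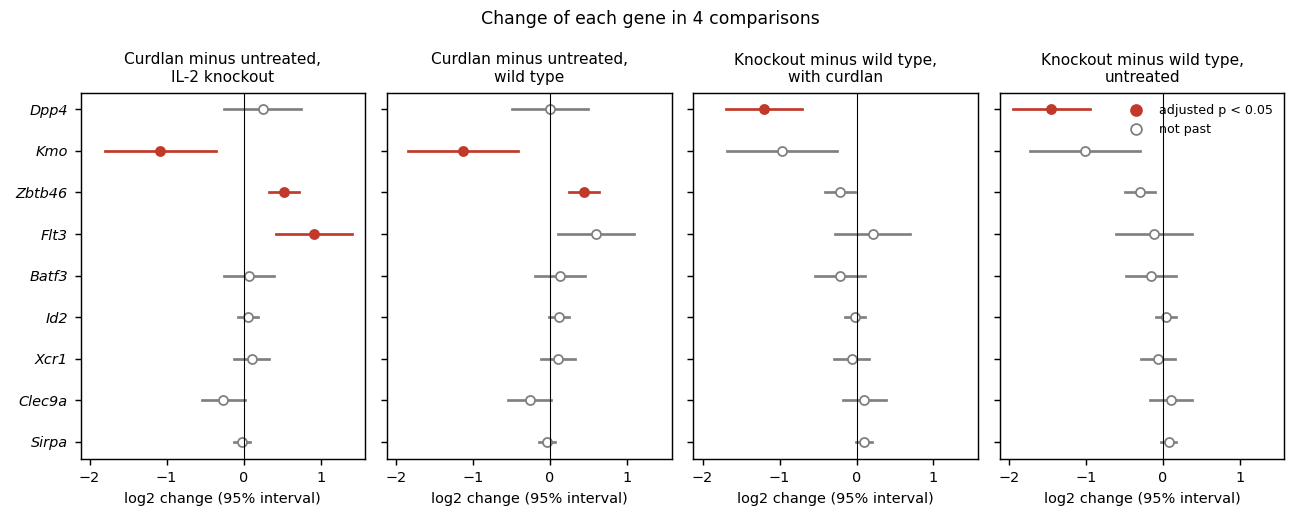
Log2 change of each gene in 4 comparisons with its 95% interval from the fit to all 12 arrays, filled red where the adjusted p was under 0.05. With curdlan Kmo stands at -1.08 in knockout and -1.13 in wild-type cells and Zbtb46 at 0.53 and 0.44, and Dpp4 in knockout minus wild-type cells stands at -1.20 with curdlan and -1.45 untreated.

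Set against all genes, the shares called were as follows. With curdlan in knockout cells 3 of the 9 genes passed, 2 higher and 1 lower, where 22.5% of all genes passed (9.29% higher and 13.2% lower). In wild-type cells 2 of 9 passed, 1 in each direction, where 19.6% of all genes did (7.27% higher and 12.3% lower). The arrays did not overlap for 2 of 9 genes in knockout cells and 3 of 9 in wild-type cells, against 40.3% and 38% of all genes. By genotype 1 of 9 passed in each treatment, as lower. With curdlan 0.622% of all genes passed and 0.517% were lower, and in untreated cells 1.42% passed and 1.19% were lower. Groups did not overlap for the same 4 genes, Dpp4, Kmo, Zbtb46 and Sirpa, in each treatment, against 14.6% of all genes with curdlan and 15.4% untreated. Averaged over both treatments 3 of 9 were lower and 0 higher, where 5.04% of all genes passed, 3.56% lower and 1.48% higher. Centring each array on its median instead moved the split of all calls: the share of them that were higher was then 31.2% in place of 41.4% for curdlan in knockout cells, 35.3% in place of 16.3% by genotype untreated and 50% in place of 29.5% for the average. The interaction gave 0 of 9 calls in limma, 0 of 9 at an unadjusted p under 0.05, and 0% of all genes called (552 of 19937 at an unadjusted p under 0.05). The 2 curdlan comparisons share no arrays with each other, but each shares its arrays with the genotype comparisons.

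**Figure D3:**
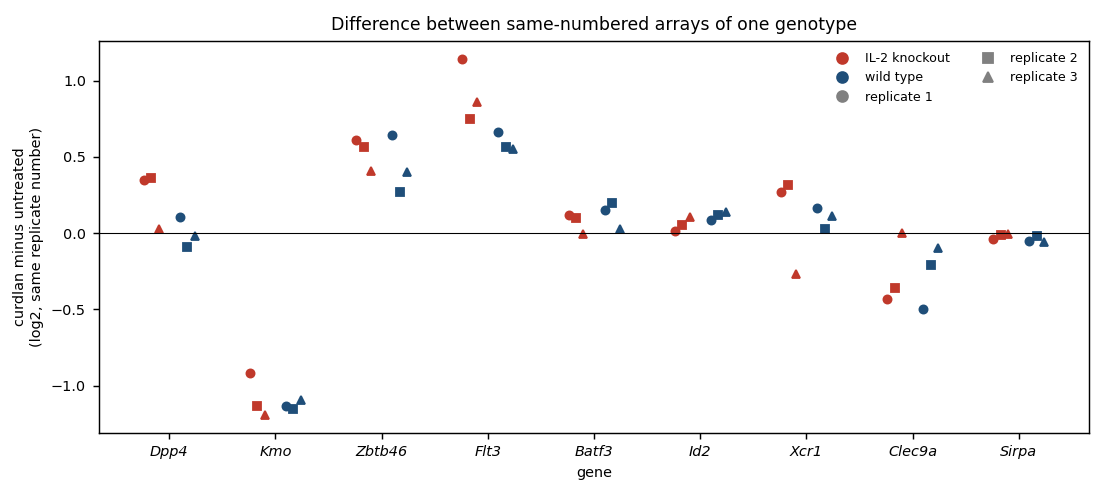
Curdlan-treated minus untreated log2 expression between same-numbered arrays of 1 genotype (3 differences each for knockout, red, and wild type, blue). All 6 differences are negative for Kmo, Clec9a and Sirpa and positive for Zbtb46, Flt3 and Id2. Those of Id2 lie between 0.02 and 0.14 and those of Sirpa between -0.06 and -0.0085, and the smallest of Clec9a is -0.0015.

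Other genes of the lineage were read from lists, whose counts stand beside 22.5% of all genes called with curdlan in knockout cells (9.29% higher and 13.2% lower), 19.6% in wild-type cells (7.27% higher and 12.3% lower) and 5.04% in the averaged genotype difference. Of 25 further genes associated with conventional dendritic cells, 7 were higher and 0 lower with curdlan in knockout cells, and 6 were higher and 2 lower in wild-type cells. The MHC class II gene H2-Eb2 rose by 1.27 (adjusted p 0.0199) and 1.11 (adjusted p 0.0368), and the nucleosome-binding protein gene Hmgn3 by 0.69 and 0.86. By genotype, 0 were higher in either treatment, 1 was lower with curdlan and 3 untreated, and 8 of 25 were lower in the average. The median difference of the list was -0.24 with curdlan and -0.39 untreated, against 0.02 and 0.01 over all genes. The receptor genes P2ry10 and Gpr82 and the protease inhibitor gene Spint2 were the 3 lower in untreated knockout cells, with differences of -0.80 (adjusted p 0.0117), -1.37 (adjusted p 0.0303) and -0.63 (adjusted p 0.0117). P2ry10 was also lower with curdlan (-0.70, adjusted p 0.0298). The mean levels of Gpr82 and Hmgn3 were low, at the 33rd and 34th percentiles of genes. Itgax, H2-Aa, H2-Ab1, H2-Eb1 and Cd74 differed by at most 0.08 between the genotypes in either treatment and did not pass.

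Genes tied to cDC1 cells moved in both directions. Of 21 measured, 5 were higher and 3 lower with curdlan in knockout cells, and 4 were higher and 5 lower in wild-type cells. Tlr3, a receptor for double-stranded RNA, rose by 1.31 (adjusted p 0.00037) and 1.57 (adjusted p 8.35e-05), and Ly75 (DEC-205), an endocytic receptor, rose by 0.90 and 0.95, in knockout and wild-type cells in that order. Irf8, the factor on which cDC1 cells depend, rose by 0.75 in knockout cells (adjusted p 0.000633) and by 0.96 in the wild type (adjusted p 9.12e-05). Itgae, the CD103 integrin gene, fell by 1.08 in the wild type (adjusted p 0.021) and its change in knockout cells was -0.55 (adjusted p 0.177). By genotype 0 of 21 passed with curdlan in limma, and 1 was higher untreated, the lipid phosphatase gene Plpp1 (0.45, adjusted p 0.046). In the average over both treatments 3 were lower, Itgae (-1.03, adjusted p 0.0135), Irf8 (-0.31, adjusted p 0.0285) and Cd24a (-0.37, adjusted p 0.0468), and Plpp1 was higher (0.38, adjusted p 0.00967).

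Genes tied to cDC2 cells also moved in both directions. Of 15, 5 were lower and 1 higher with curdlan in knockout cells, and 6 were lower and 1 higher in wild-type cells, with list medians of -0.05 and -0.28. The lectin gene Clec10a fell by 0.88 (adjusted p 0.000168) and 1.24 (adjusted p 1.06e-05), and the lectin gene Cd209a changed by -1.84 and -2.87. Within a single treatment Cd209a was the 1 gene of the list past the threshold by genotype, lower in the knockout at -1.42 with curdlan (adjusted p 0.0396) and -2.45 untreated (adjusted p 0.00588). In the average it was joined by Relb (-0.46, adjusted p 0.0101), while Clec4a2 was higher (0.31, adjusted p 0.0206).

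Around the members with a transcription factor or inhibitor role, 6 of 25 factors and Id partners were higher and 6 lower with curdlan in knockout cells, and 7 were higher and 5 lower in wild-type cells. Batf2, a relative of Batf3, rose by 0.95 (adjusted p 0.000906) and 1.06 (adjusted p 0.000381), and in untreated cells it was higher in the knockout by 0.62 (adjusted p 0.0493). Tcf4, an E protein that Id proteins oppose, rose by 0.80 in knockout cells (adjusted p 0.000203) and by 0.87 in the wild type (adjusted p 9.12e-05). Klf4 fell by 0.85 in knockout cells (adjusted p 0.0153) and by 0.71 in the wild type (adjusted p 0.0331). Relb, an NF-kB subunit, rose by 0.83 and 0.81 (adjusted p 0.000996 and 0.00102). In the averaged genotype difference 3 of the 25 were higher and 2 lower.

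Around Flt3, 4 of 14 growth factor receptor and signalling genes were higher with curdlan in knockout cells and 3 in wild-type cells, and 0 were lower. These were led by Stat5a (1.04 and 1.21, adjusted p 0.00497 and 0.00194) and Stat5b (0.41 and 0.63), which relay signals of GM-CSF and other cytokines. By genotype 0 of the 14 passed in either treatment in limma, and 1 was higher and 3 lower in the average.

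Around Kmo, 1 of 12 tryptophan and kynurenine genes was higher and 2 lower with curdlan in knockout cells, and 1 was higher and 3 lower in wild-type cells. Haao, the enzyme that acts after kynureninase in the same route, fell by 0.56 with curdlan in the wild type (adjusted p 0.0226) and was lower in untreated knockout cells than in untreated wild-type cells (-0.86, adjusted p 0.0198). Kyat3, an aminotransferase of kynurenine, fell by 0.30 in knockout cells (adjusted p 0.0468) and by 0.40 in the wild type (adjusted p 0.0158), while Wars, the tryptophanyl-tRNA synthetase, rose by 0.50 and 0.51. In the averaged genotype difference 3 of 12 were lower and 0 higher. In this list 6 of 12 genes were below the median gene on all arrays. The same held for 9 of 21 cDC1, 5 of 15 cDC2 and 3 of 25 further conventional dendritic cell genes. It held for 2 of 25 factors and Id partners, 4 of 10 genes around Dpp4 and 1 of 10 around the surface receptors. Among the growth factor receptor and maturation lists it held for 0 of 14 and 0 of 19.

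Around Dpp4, 2 of 10 family and partner genes were higher and 2 lower with curdlan in each genotype. Fap, the closest relative of Dpp4, rose by 0.61 (adjusted p 0.00108) and 0.45 (adjusted p 0.00514), and Dpp8 fell by 0.29 and 0.30. Fap was dim, with a mean level at the 21.9th percentile of genes, and that of Ada lay at the 38.6th. Ada, whose product binds DPP4 in human cells, was lower in untreated knockout cells (-0.43, adjusted p 0.014) and was the 1 gene of this list past the threshold in the average (-0.28, adjusted p 0.00713). Around the surface receptors, Cd47, the partner of Sirpa, rose by 0.50 (adjusted p 0.0011) and 0.46 (adjusted p 0.00149), and Syk by 0.26 and 0.22, among 10 genes of which 3 and 2 were higher and 0 lower; in the averaged genotype difference 2 were higher and 0 lower. For scale, 15 of 19 maturation genes were higher with curdlan in knockout cells and 16 in wild-type cells, 0 were lower, and the list medians were 1.09 and 0.99. In untreated cells 1 maturation gene, the actin-bundling gene Fscn1, was lower in the knockout (-0.60, adjusted p 0.0406). With curdlan 0 of the 19 passed by genotype, and in the average 6 were lower and 0 higher. The list medians of knockout minus wild type were -0.34 with curdlan, -0.32 untreated and -0.40 in the average, against 0.02, 0.01 and 0.01 over all genes.

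**Figure D4:**
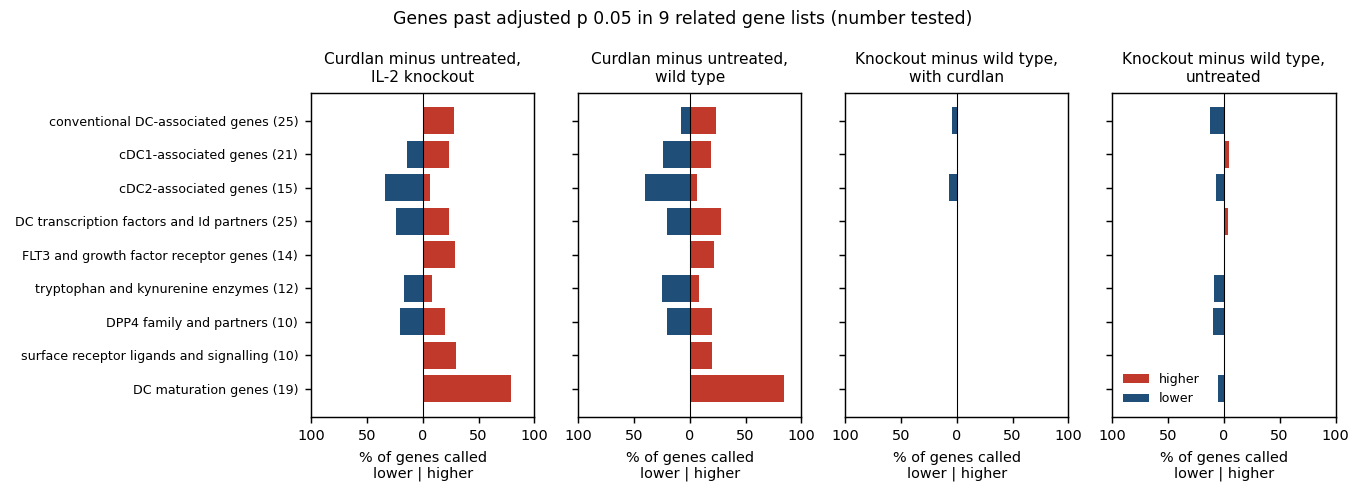
Percent of genes past the threshold in each of 9 related lists, higher (red, to the right) and lower (blue, to the left), in 4 comparisons; the number tested stands in parentheses and the 9 members are left out. The maturation list reaches 15 of 19 and 16 of 19 higher with curdlan, while the genotype comparisons hold at most 3 called genes in a list.

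Likeness to a member was read as the Pearson correlation with every other gene over the 12 arrays, which share the 4 groups and the replicate numbers, and it is given as a description. Dpp4 was most alike to Mgat4a (0.99), Dpy19l3 (0.97) and Bmf (0.96). Kmo was most alike to Klrb1f (0.97), Sesn2 (0.97) and Pxdc1 (0.96). Zbtb46 was most alike to Relb (0.98), Rcsd1 (0.98) and Mab21l3 (0.98). Flt3 was most alike to Olfr593 (0.93), Oprd1 (0.91) and Apcdd1 (0.90). With group means removed, the first of these stayed at 0.95 for Mgat4a, 0.94 for Klrb1f, 0.81 for Relb and 0.91 for Olfr593. The members that passed in no comparison were most alike to Cp (0.96, Batf3), Ccl7 (0.92, Id2), Olfr661 (0.87, Xcr1), AB010352 (0.97, Clec9a) and Ctnnb1 (0.95, Sirpa). Olfr593 and Olfr661 were dim, with mean levels at the 9.37th and 19th percentiles of genes, so those 2 correlations rest on low signals.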

How the data were processed

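RNA was measured on 12 Affymetrix arrays, 1 per sample, from 100 ng of total RNA, with purity above 95% per the labels. The authors deposited log2 values from RMA, per the submitters' processing notes; no source used here gives the software version or which arrays were normalised together. Of 34760 probe sets, 21640 carried exactly 1 symbol, 1321 several, and 11799 were not listed. The probe set with the highest mean was used per gene (19937 genes), with no dim filter. limma 3.58.1 (R 4.3.3) estimated 1 mean per group from the 12 arrays (8 residual degrees of freedom; two-sided; Benjamini-Hochberg over all genes per contrast; threshold 0.05). The number of arrays limits the precision. The steps were tested on simulated data.

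The members, the 15 lists (250 entries, 236 genes, of which 14 had no usable probe set) and the alternatives were chosen with earlier results of these data known. Named genes were the members, up to 3 called genes per list and contrast with the largest change in the 2 curdlan and 2 single-treatment genotype contrasts, and the 3 genes most alike to each member, predicted genes left out; genes named only for the averaged genotype difference were chosen after their values were seen. After group means were removed, the 6 same-numbered pairs of curdlan-treated and untreated arrays of 1 genotype correlated at 0.37 to 0.60, so number was taken as a culture. Between genotypes same-numbered untreated arrays correlated at 0.11 to 0.25 and treated arrays at -0.13 to 0.33. The replicate number was fitted as a block in every genotype contrast. The range of the treated arrays includes negative values, so the pairing was not shown for them. Calls gained with this block with curdlan or in the average rest on that pairing. Every averaged genotype difference counts the curdlan-treated and untreated arrays of a culture as separate samples, except where a block is named. SD is over the 3 arrays of a group.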

Additional observations from a re-analysis of the deposited data

How the results depend on the processing

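Each change of a member was recomputed under up to 27 alternatives: the replicate blocks, the arrays compared alone, other scalings, dim genes left out, probe sets averaged, all probe sets tested, another variance model, and each of 12 arrays and 6 cultures left out. Of 1434 recomputed values, 1345 kept their side of the threshold, 77 lost the call, 12 gained one and 0 reversed a called direction. Values that were not called crossed 0 in 70 cases. With an array or culture left out, the members past the threshold numbered 1 to 4 for curdlan in knockout cells (3 with all arrays), 1 to 2 in wild-type cells (2), 0 to 1 by genotype with curdlan (1), 0 to 2 untreated (1) and 1 to 3 in the average (3). With all probe sets tested they numbered 1 for curdlan in wild-type cells, 0 by genotype with curdlan and 1 in the average. With the trend and robust variance model they numbered 1 for curdlan in wild-type cells and 0 by genotype with curdlan. By genotype with curdlan the count was 0 after quantile normalisation, and it was 0 in either treatment when only the arrays compared were fitted, which uses fewer samples; the 3 members at an unadjusted p under 0.05 in limma were Dpp4, Kmo and Zbtb46. With the replicate number as a block it was 2 in each treatment, Dpp4 and Kmo (Kmo with curdlan, adjusted p 0.0448), and Batf3 passed in the average (-0.18, adjusted p 0.0132, against 0.538 with the culture as a random block and 0.446 with no replicate block). Kmo with curdlan did not pass with the random block (0.173). The culture as a random block ended the averaged call of Zbtb46 (adjusted p 0.08); beside these and the calls given with Dpp4, Flt3 and Kmo above, the blocks changed no other call of a member. Sirpa passed in the average with the trend and robust model (0.08, adjusted p 0.0498). The cause of a lost call was not tested. Calls gained with the number block rest on a pairing not shown for treated arrays. This holds for untreated cells too, because the block was fitted to all 12 arrays at once. Same-numbered treated arrays of the genotypes correlated at -0.13 to 0.33. Over all genes the counts ranged from 1079 to 6699 for curdlan in knockout cells (4481 as reported), 1841 to 5298 in wild-type cells (3899), 15 to 450 by genotype with curdlan (124), 9 to 699 untreated (283), 325 to 1621 in the average (1005) and 0 to 3 for the interaction (0). Among these, the number block gave 450 by genotype with curdlan, 699 untreated and 1621 in the average, and the arrays compared alone gave 15 with curdlan and 70 untreated. No background level per probe set was used here, so signal over background is not given.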
